A study of Mus musculus with 6 samples.

Results

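The genes described here encode receptors for serotonin, noradrenaline, dopamine and acetylcholine, muscle nicotinic subunits included. They were taken as every probe set whose single gene symbol in the platform annotation named a serotonin, adrenergic, dopamine, muscarinic or nicotinic receptor gene, with Htr1d left out. The rule found 63 probe sets for 36 genes, of 35041 probe sets with 1 gene symbol for 18193 genes in the whole series. Array type A held 41 of them for 34 genes and array type B 22 for 16 genes, and 14 genes were on both. No beta adrenergic receptor gene was among them, nor Htr2a, Adra1a, Adra2a, Adra2b, Chrm2, Chrm5 or Drd5. The results therefore do not cover every receptor of these transmitters.

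The series compared lumbar spinal cord of mice labelled Egr3-deficient and wild type at postnatal day 27, in segments L3 to L5, to look for genes of fusimotor neurons. Egr3 is a transcription factor gene, and the labels name no allele, strain or sex. The RNA came from 3 pools of 3 cords each: pool 1 (RNA 450) and pool 2 (RNA 500) were labelled Egr3-deficient, and 1 pool (RNA 499) was wild type. Each pool was hybridised once to both array types, so 6 arrays were used, and the labels of pool 2 and of the wild-type pool carry an acclimatization remark that pool 1 lacks. Where pools are called replicates, the spread between them is that of pooled cords, and the wild-type group has a single pool.

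Egr3 was not lower than wild type in both Egr3-deficient pools on either array type. Its readings in pool 1, pool 2 and wild type were 24.9, 52.7 and 40.6 on A and 210, 107 and 75.3 on B. Wild type thus lay between the pools on A and below both on B, where the log2 difference was 1.03. The labels do not say where its probes lie relative to the deleted part, so the gene does not check the labels, and each direction below rests on the libraries as labelled. Neuron markers were present on both array types. The 6 on A summed to 9003, 10460 and 14210, with 5 of 6 lower than wild type in both pools on the normalized scale and a median log2 difference of -0.693. The 5 on B summed to 21960, 23290 and 20630, with 3 of 5 lower and a median of -0.411. Over all kept probe sets 34.8% on A and 36.6% on B were lower in both pools, with medians of 0.114 and 6.3e-05. The part of the neuron markers in the receptor readings was not tested. Of the 4 listed lumbar markers, Hoxc10 read 1070, 1020 and 795 on B, and Hoxa10 read 94.7, 59.8 and 60.4 there. On A Hoxa10 read 153, 153 and 111, Hoxd10 113, 176 and 143, and Hoxd11, below the filter, 20.7, 4.44 and 23.6. The markers thus had no common direction. The forebrain marker Emx1 read 151, 117 and 104 on B.

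Descending serotonin and noradrenaline fibres set the excitability of motor neurons and interneurons and gate sensory input. Acetylcholine in the cord comes mainly from motor neuron collaterals and cholinergic interneurons. Serotonin, adrenergic, dopamine and muscarinic receptors mostly signal through G proteins: Gq-coupled receptors such as the product of Htr2c raise calcium, Gi-coupled ones such as that of Htr1b lower cyclic AMP, and Gs-coupled ones such as that of Htr7 raise it. Nicotinic receptors and the serotonin receptor built from Htr3a are ion channels of several subunits, and a separate set of nicotinic subunits (Chrna1, Chrnb1, Chrnd, and Chrne or Chrng) forms the receptor of the neuromuscular junction.

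The promoters of 4 genes are shown because, among receptor probe sets kept by the filter described below, these genes had the largest differences in each direction on array type B. Htr2c and Chrna7 were below wild type and Chrna4 and Htr7 above it. Of the 36 genes, 28 had an entry in the RefSeq promoter table of GRCm38.p6, which gives 250 bases before to 50 after an annotated start. Capitals mark matches to GCGNGGGCG, a binding sequence of the EGR family, searched on both strands. All sequences are written in the direction of transcription.
Htr2c, chrX:146962263-146962562, plus strand: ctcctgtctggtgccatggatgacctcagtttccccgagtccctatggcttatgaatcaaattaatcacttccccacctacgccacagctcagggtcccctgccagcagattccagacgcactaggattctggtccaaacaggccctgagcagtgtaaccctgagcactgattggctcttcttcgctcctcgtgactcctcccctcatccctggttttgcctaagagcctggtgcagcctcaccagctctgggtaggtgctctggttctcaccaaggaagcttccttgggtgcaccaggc
Chrna7, chr7:63212477-63212776, minus strand: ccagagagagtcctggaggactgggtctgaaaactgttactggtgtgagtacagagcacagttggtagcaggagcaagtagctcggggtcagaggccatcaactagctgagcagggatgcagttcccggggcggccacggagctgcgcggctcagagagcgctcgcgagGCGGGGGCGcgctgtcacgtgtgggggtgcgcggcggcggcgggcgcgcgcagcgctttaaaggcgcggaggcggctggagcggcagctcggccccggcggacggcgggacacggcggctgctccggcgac
Chrna4, chr2:181039128-181039427, minus strand: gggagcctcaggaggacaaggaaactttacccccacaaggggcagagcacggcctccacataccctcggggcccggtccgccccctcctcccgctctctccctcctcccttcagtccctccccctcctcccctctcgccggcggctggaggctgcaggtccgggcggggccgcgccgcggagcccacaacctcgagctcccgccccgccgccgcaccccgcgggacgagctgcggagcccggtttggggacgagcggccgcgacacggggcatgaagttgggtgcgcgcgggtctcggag
Htr7, chr19:36057311-36057610, minus strand: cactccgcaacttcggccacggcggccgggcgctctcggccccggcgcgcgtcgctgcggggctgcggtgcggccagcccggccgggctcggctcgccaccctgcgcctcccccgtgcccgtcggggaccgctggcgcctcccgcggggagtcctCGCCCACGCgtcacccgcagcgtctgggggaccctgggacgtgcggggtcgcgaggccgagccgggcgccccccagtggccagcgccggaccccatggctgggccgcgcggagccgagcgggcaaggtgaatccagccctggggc

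The EGR letters were found in the promoters of 2 of the 28 genes, Chrna7 and Htr7, which is 7.14%, and in 6.27% of all 27025 genes of the table. The match began at -81 from the start in Chrna7 and at -95, on the opposite strand, in Htr7. The 2 genes lay on opposite sides of wild type on array type B. The cyclic AMP response letters TGACGTCA were found in 0 of the 28 genes and in 2.03% of all genes. A match is a description of the sequence and not a bound site. GC content was 56.3% for Htr2c, 70% for Chrna7, 74.3% for Chrna4 and 81% for Htr7, and the median of all promoters was 52.7%. Among the members, Chrna5, Chrna3 and Chrnb4 are consecutive protein-coding genes on GRCm38.p6, as are the pairs Chrnd and Chrng, Chrnb3 and Chrna6, and Htr3a and Htr3b.

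Few receptor probe sets were bright on array type A, while on B their share was near that of all probe sets. In wild type 2 of 41 on array type A exceeded an intensity of 100, a share of 4.88%, where 37.3% of all probe sets did. On array type B 9 of 22 did, a share of 40.9%, where 47.1% of all probe sets did. Together they stood for 9 genes, of which Htr2c and Htr1b exceeded 100 on both array types and Htr7, Htr5a, Adra2c, Chrm1, Chrna7, Chrnb2 and Chrnb4 on array type B only. The other 27 genes had no probe set above 100. Nearest to that limit were Htr2c at 107 and Htr3a at 89.2 on A, and Chrnb4 at 105 and Chrna3 at 80.1 on B. Intensities of different probe sets cannot be ranked against each other, since each probe binds with its own strength, so the limit says which readings were clear of the dim range and not which receptor was most abundant.

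For the comparison of pools, values were taken as log2(intensity + 16), quantile normalized within the array type, and kept where the mean reached the 40th percentile, near an intensity of 36.7 on A and 55.9 on B. This filter keeps 60% of all probe sets. It kept 9 of the 41 receptor probe sets on A (22%) and 12 of 22 on B (54.5%), for 15 genes in all. The remaining 21 genes were kept on neither array type and have readings only. All differences below are Egr3-deficient minus wild type on this scale, and understate changes of dim genes.

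No receptor gene passed the test at an adjusted p of 0.05 on either array type (limma, Benjamini-Hochberg over all kept probe sets). On A 0 of 9 were called higher or lower, where 0.0663% and 0% of all kept probe sets were. On B 0 of 12 were, where 1.02% were called higher and 0.607% lower. At an unadjusted p under 0.05, the count on A was 0 higher and 1 lower (7.93% and 12.7% of all), and on B 1 higher and 1 lower (7.4% and 6.83% of all). At least 2-fold above wild type in both pools was 0 on A (1.2% of all) and 1 on B (4.27% of all), and 2-fold below was 0 on both (4.35% of all on A and 1.8% on B). Each of these receptor counts is 0 or 1 probe set.

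**Figure D1:**
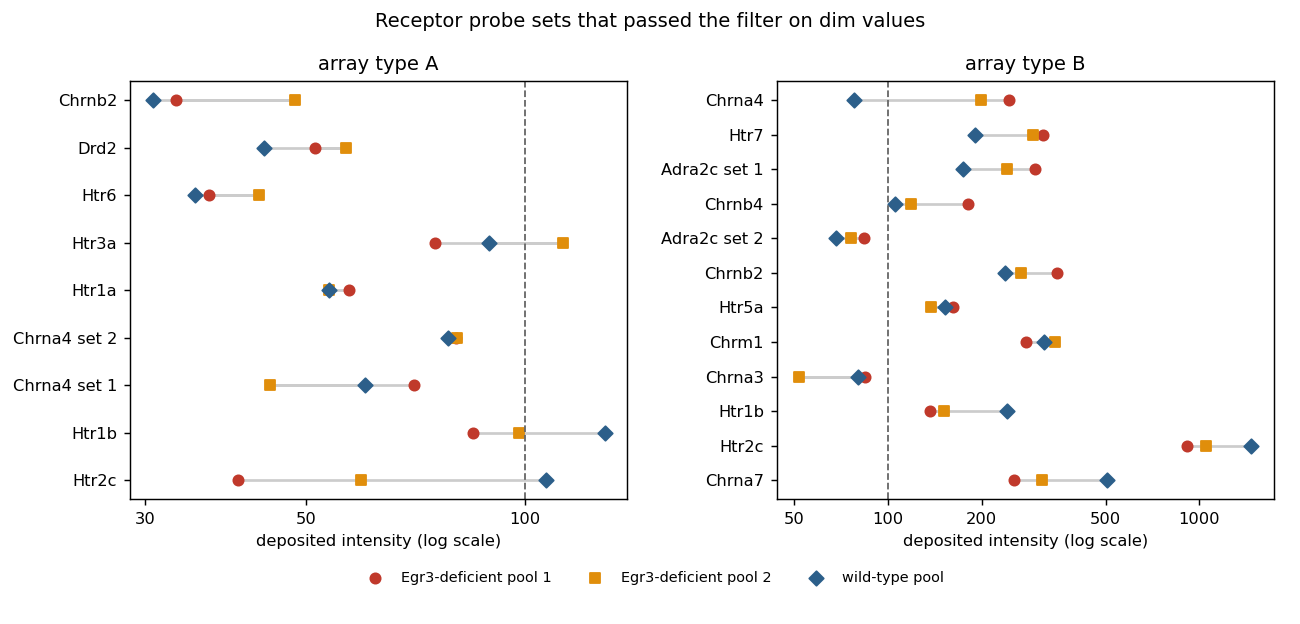
Deposited intensity (log axis) of the 21 receptor probe sets that passed the filter, in pool 1, pool 2 and wild type, by array type and ordered by their mean difference; the dashed line marks 100. Htr2c and Htr1b have their wild-type reading above both pools on both array types, and Chrna4 on B reads 77.7 in wild type against 244 and 199.

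The serotonin receptor gene Htr2c was below wild type in both pools on both array types. Its product is the Gq-coupled receptor that promotes motor neuron excitability. Pool 1 read 914 on array type B, pool 2 read 1050 and wild type 1470, so both pools lay below the wild-type reading. The log2 difference there was -0.84 (SE 0.38, limma adjusted p = 0.289), with an interval at 95% from -1.61 to -0.08. On array type A it read 40.2, 59.4 and 107, a difference of -0.81 (SE 0.34, adjusted p = 0.233). Both intervals leave out 0 as reported, and neither value passed after adjustment over all probe sets. On B the interval took in 0 under median centring (-0.41, SE 0.56), without quantile normalization (-0.57, SE 0.47) and without the intensity trend (-0.84, SE 0.48). On A it did so on scaling to shared probe sets (-0.91, SE 0.41) and without a filter (-0.81, SE 0.35). The arrays measured the same 3 RNA pools, so their likeness repeats the hybridisation and not the animals.

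Choroid plexus, the secretory tissue of the brain ventricles, is known for high Htr2c, so its markers are given beside it. On array type B the single listed marker on the array, Ttr, read 584, 6740 and 50.9 in that order. On A the 4 listed markers (Ttr, Folr1, Kl and Otx2) summed to 212.6, 2473 and 77.39, and these sums followed Ttr at 150, 2410 and 24. Folr1 read 39.4, 44.5 and 37.3, and Kl, below the filter, 22.1, 17.4 and 15.2. Otx2 stayed between 0.591 and 2.65. Ttr is also a liver gene and is part of the liver list, whose 6 genes on A summed to 373.5, 9856 and 109.8 in the same order. Of the other liver genes, Alb read 56.4, 3710 and 37.7, and Ahsg 2.82, 409 and 3.43, with pool 1 not above wild type. The part of these markers in the Htr2c readings was not tested.

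Htr1b, whose product is a Gi-coupled receptor that curbs transmitter release from axon terminals, was also lower in both pools on both array types without passing. It read 137, 151 and 242 on B in pool 1, pool 2 and wild type. Both pools lay below the single wild-type pool, as they did for 36.6% of all kept probe sets on B. The Htr1b difference was -0.62 (SE 0.46, adjusted p = 0.601). On A the readings were 85, 98.1 and 129, a difference of -0.34 (SE 0.32, adjusted p = 0.555). Sensory neurons of the dorsal root ganglion express this gene too, and 2 of 5 listed markers of that ganglion were on A and none on B. These were Avil and Scn10a, which summed to 17.9, 12.5 and 93.9 and did not pass the filter. Their part in the Htr1b readings was not tested.

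Htr7, which encodes a Gs-coupled serotonin receptor, pointed the other way. On B it read 314 and 292 in the pools labelled Egr3-deficient and 190 in wild type, a difference of 0.68 (SE 0.45, adjusted p = 0.535). Its probe set on A did not pass the filter and read 16.3, 18.8 and 31.8, below wild type in both pools. The 2 probe sets thus placed the pools on opposite sides of wild type, the dim one below and the brighter one above.

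Htr5a, a Gi-coupled receptor gene, read 162, 138 and 153 on B, with wild type between the pools (difference 0.076, SE 0.47, adjusted p = 0.974). Its interval ran from -0.86 to 1.02, so a change of up to 2-fold could not be told from none. On A its probe set read 1.96, 20.5 and 27.5, below the filter and with wild type highest. The Gi-coupled Htr1a and the Gs-coupled Htr6 were kept on A, and are named after their values were seen. Htr1a read 57.3, 53.8 and 53.7, and Htr6 read 36.7, 43.1 and 35.1. Both were close to the filter and differed by 0.16 and 0.23 (adjusted p = 0.806 and 0.696). A further Htr1a probe set on A, below the filter, read 37, 17.6 and 43.7 and had wild type highest. Htr1f was dim on both array types, from 2.19 to 9.45 over all 6 readings. The probe sets of G protein-coupled serotonin receptors that did not pass the filter numbered 7 on A, between 1.96 and 43.7, and 2 on B, between 3.39 and 69.8. The higher end on B was Htr4, a Gs-coupled receptor gene, which read 12.4, 37 and 69.8.

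Of the serotonin-gated channel, Htr3a encodes the subunit that every such receptor needs. It read 75.3, 113 and 89.2 on A, with wild type between the pools (difference 0.16, SE 0.35, adjusted p = 0.811). Htr3b, the partner subunit gene, read 2.44, 5.43 and 1.94.

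The adrenergic receptor gene Adra2c was above wild type in both pools on both array types. It encodes a Gi-coupled alpha-2 receptor for noradrenaline. Its 3 probe sets on B read 296, 241 and 174, then 84, 76.3 and 68.3, then 13.3, 16.2 and 10.6, in pool 1, pool 2 and wild type. In each of them wild type was lowest. The first had a difference of 0.64 (SE 0.45, adjusted p = 0.575), the second 0.38 (SE 0.66, adjusted p = 0.875), and the third did not pass the filter. On A its probe set read 34.3, 22 and 11, also below the filter. Adra1b, a Gq-coupled alpha-1 receptor gene, read 37.6, 31.2 and 28.8 on A and did not pass the filter.

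Dopamine receptor genes gave low readings throughout. Drd2, the Gi-coupled receptor gene, was the one kept, and read 51.4, 56.7 and 43.7 on A (difference 0.35, SE 0.33, adjusted p = 0.553). Drd3, also Gi-coupled, read 19.3, 34.2 and 26.9. Drd1, the Gs-coupled receptor gene, had 2 probe sets on B that read 38.1, 26.4 and 8.03, and 4.99, 5.18 and 8.05. They disagreed in direction and lay below the filter.

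Among muscarinic receptors, Chrm1, a Gq-coupled receptor gene, was kept on B and had wild type between the pools. Its readings were 278, 344 and 316 in the order pool 1, pool 2, wild type, a difference of -0.03 (SE 0.44, adjusted p = 0.99). The interval from -0.92 to 0.86 leaves room for nearly 2-fold either way. The 3 muscarinic genes on A (Chrm1, Chrm3 and Chrm4) read between 2.96 and 22.8 and did not pass the filter there.

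The largest difference among the receptors was that of the nicotinic subunit gene Chrna4 on array type B. With Chrnb2 it forms the most common heteromeric nicotinic receptor of the brain. Pool 1 read 244 for Chrna4, pool 2 read 199 and wild type 77.7, 3.15 and 2.56 times the wild-type reading. The log2 difference was 1.48 (SE 0.47, adjusted p = 0.088), and the interval ran from 0.54 to 2.42. Over the settings tried its adjusted p ran from 0.0404 to 0.474 (limma), and it passed under 1 of them, the filter at the 60th percentile, where fewer probe sets were tested. It was 0.376 without quantile normalization, 0.355 without the intensity trend, 0.474 without a filter, and 0.388 on scaling to shared probe sets, where the difference was 0.76. Both probe sets of the gene on A were kept and did not share this difference. One read 70.5, 44.5 and 60.2, with wild type between the pools, and the other 80.4, 80.7 and 78.5. Their differences were 0.03 and 0.14 (adjusted p = 0.973 and 0.829). The gap between the array types was not tested.

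Chrna7, which encodes the subunit that forms receptors on its own and is highly permeable to calcium, had its wild-type reading above both pools. On B it read 254 and 313 against 507, a difference of -0.87 (SE 0.44, adjusted p = 0.355), with an interval from -1.76 to 0.01. Its probe set on A read 16, 14.4 and 29.5, lower in both pools as well but below the filter.

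Chrnb2 was above wild type in both pools wherever it was kept. It read 348, 267 and 238 on B (difference 0.36, SE 0.45, adjusted p = 0.8) and 33.1, 48.2 and 30.7 on A (0.37, SE 0.33, adjusted p = 0.538). A further probe set on B, below the filter, read 19.3, 11.2 and 29.2 and had wild type highest. Chrnb4, the beta subunit gene next to Chrna3, read 181, 119 and 105 on B (0.57, SE 0.49, adjusted p = 0.664). Chrna3 itself, named after its values were seen, read 84.2, 51.9 and 80.1 (-0.04, SE 0.70, adjusted p = 0.991), with wild type between the pools. The third gene of this cluster, Chrna5, an accessory subunit gene, was below the filter on both array types. It read 42.8, 65.4 and 29.2 on B and 10.1, 11.1 and 14 on A. The 3 neighbouring genes therefore had no common direction across their probe sets. Of the nicotinic probe sets outside the muscle subunits, 9 on A and 5 on B were not kept. Their readings lay between 3.15 and 35.6 on A and between 6.77 and 69.9 on B. Both ends of the range on B came from Chrna9, which had no kept probe set.

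None of the muscle nicotinic subunit genes passed the filter, although skeletal muscle genes were far above wild type in the same pools. All 5 were on array type A, in 7 probe sets that read between 0.548 and 36.2. Chrna1, the acetylcholine-binding subunit gene, read 24, 36.2 and 12.8 in pool 1, pool 2 and wild type. Chrnb1 read 9.46, 18.5 and 3.56, and Chrnd 3.15, 3.77 and 2.66. For all 3 the wild-type reading was lowest. Chrne, the adult subunit gene, read 2.46, 4.35 and 10.8, with wild type highest. Chrng, the fetal subunit gene, had 3 probe sets whose readings stayed between 0.548 and 14.3. The 14 skeletal muscle markers on A summed to 5961, 7336 and 1090. Both pools exceeded wild type for all 14, and 7 passed (47.9% and 0.0663% of all kept probe sets did so). Acta1, skeletal muscle actin, read 1100, 1210 and 39.7. Their part in the Chrna1 and Chrnb1 readings was not tested.

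**Figure D2:**
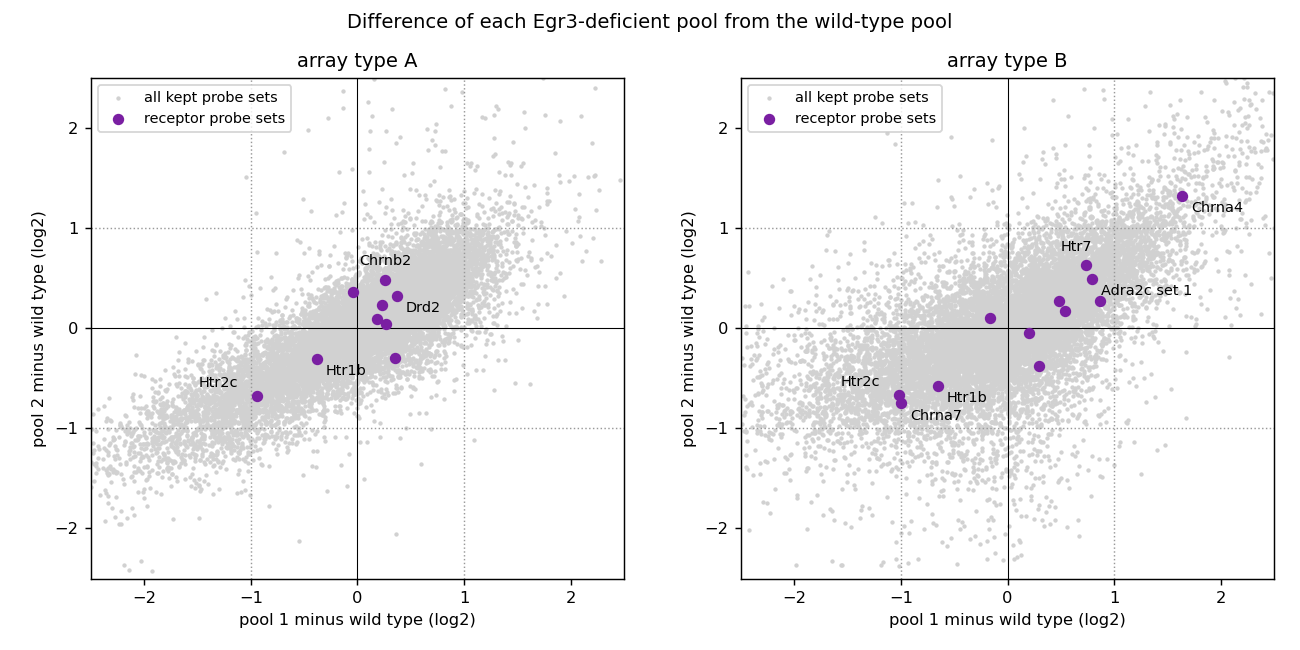
Log2 difference from wild type of pool 1 (horizontal) and pool 2 (vertical) for all kept probe sets (grey) and the receptor probe sets (purple), by array type; dotted lines mark 2-fold, and probe sets beyond the axes are not drawn. The receptors lie within the grey cloud on both, with Chrna4 on B past 2-fold in both pools.

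The kept receptor probe sets lay on both sides of wild type. On A 5 of 9 kept probe sets exceeded wild type in both pools, 2 were below and 2 had the pools on opposite sides, where 47.9% of all were above and 34.8% below. On B 6 of 12 were above, 3 below and 3 on opposite sides, where 38.9% were above and 36.6% below. The median difference was 0.157 on A, beside 0.114 over all kept probe sets, and 0.216 on B, beside 6.3e-05. Both pools were compared with the same wild-type pool, so a high or low wild-type reading moves both the same way. Pool 1 was further from wild type than pool 2 in 7 of 9 kept receptor probe sets on A and in 11 of 12 on B. Over all kept probe sets pool 1 was further in 68.5% on A and 65.3% on B.

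By signalling class, the Gq-coupled genes kept were Htr2c on both array types and Chrm1 on B, with differences between -0.84 and -0.03. The Gs-coupled genes kept were Htr6 on A at 0.23 and Htr7 on B at 0.68. The Gi-coupled probe sets kept ran from -0.34 to 0.35 on A and from -0.62 to 0.64 on B, with Htr1b at the lower end of each and Drd2 and Adra2c at the upper ends. The channel subunits ran from 0.03 to 0.37 on A and from -0.87 (Chrna7) to 1.48 (Chrna4) on B. Each class thus rests on few genes, and only the Gi-coupled and channel classes held genes on both sides of wild type on B.

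The 4 genes kept on both array types were Htr2c, Htr1b, Chrnb2 and Chrna4. Htr2c and Htr1b were below wild type and Chrnb2 above it on both, whereas Chrna4 was 2-fold above it on B alone. The direction of Htr2c, Htr1b and Chrna7 was kept under every processing setting tried, between -1.39 and -0.25. That of Chrna4, Htr7 and the first Adra2c probe set on B was kept too, though scaling on the 100 probe sets shared by the array types brought Htr7 to 0.05 and Adra2c to 0.002. This scaling moved the median of all kept probe sets on B to -0.66, so relative to that median both remained above it, and Htr2c at -1.15 and Chrna7 at -1.39 below it.

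**Figure D3:**
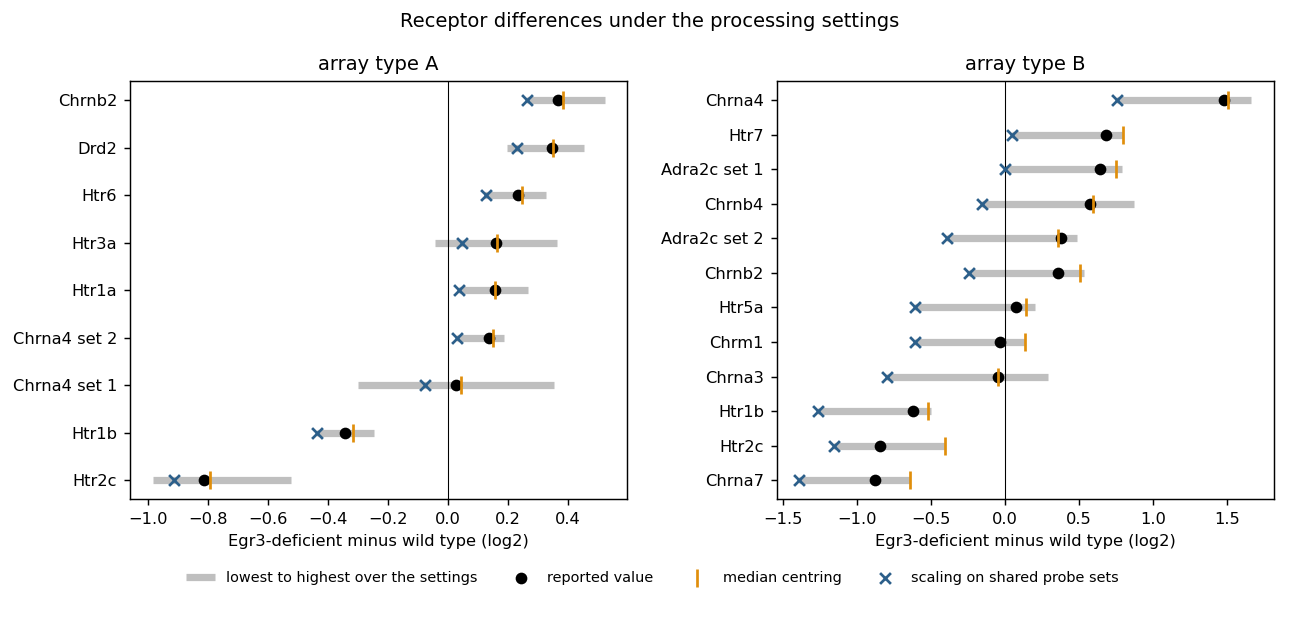
Log2 difference from wild type of each kept receptor probe set as reported (black), under median centring (orange bar), under scaling on shared probe sets (blue cross) and over all settings (grey line), by array type. On B the shared scaling moves every receptor down, Chrna4 from 1.48 to 0.76 and Htr2c from -0.84 to -1.15, while median centring brings Htr2c to -0.41.

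The genes that make, store, remove and transduce these transmitters had no calls either. Of the 17 listed for monoamine synthesis, transport and breakdown, 6 were kept on A. Of these 5 were higher than wild type in both pools and 1 lower (47.9% and 34.8% of all kept probe sets). On B 6 were kept, 2 higher and 1 lower (38.9% and 36.6% of all). None passed. The lower one was Maoa on both array types, the gene of the monoamine oxidase that prefers serotonin and noradrenaline. It read 216, 205 and 376 on A (difference -0.77, SE 0.31, adjusted p = 0.222) and 159, 219 and 440 on B (-1.20, SE 0.45, adjusted p = 0.176). Maob, the sister enzyme gene, was higher in both pools on B, at 526, 506 and 322 (0.61, adjusted p = 0.575). Gch1, whose product makes the cofactor of monoamine synthesis, read 43.6, 46.5 and 24.6 on A, and the aldehyde dehydrogenase gene Aldh2 read 631, 406 and 327. The cell bodies of most descending monoamine neurons lie in the brainstem, and other genes of this list read both low and high. Slc6a4, the serotonin transporter gene, read between 2.57 and 4.34 on A, and Tph2 24.1, 9.39 and 2.66 on B, below the filter. On A the kept genes Ddc, Th and Dbh read 214, 183 and 155, then 66.7, 72.4 and 65.1, then 51.3, 38.3 and 37.3. Slc6a2 read 187, 161 and 138 on B, but 25.8, 32.7 and 18.8, below the filter, on A.

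The kept cholinergic genes were mostly higher than wild type without passing. Of the 8 listed, 4 were kept on A, all higher in both pools on the normalized scale (47.9% of all kept probe sets were). On B 4 were kept, 3 higher and 1 lower (38.9% and 36.6% of all). The 3 on A that missed the filter, Bche, Slc5a7 and Colq, instead had their highest reading in wild type, at 30.5, 33.3 and 17.4. Ache, acetylcholinesterase, read 424, 332 and 201 on A (difference 0.89, SE 0.31, adjusted p = 0.195). Chat, the enzyme of acetylcholine synthesis and a marker of motor neurons, read 94.7, 149 and 76.4 on B (0.74, adjusted p = 0.591). Other listed motor neuron markers on A went both ways. Prph read 262, 241 and 325, and Isl1, below the filter, 15, 26.9 and 67.4, each with wild type highest. Mnx1, also below the filter, read 26.7, 23.3 and 15.1, with wild type lowest. Slc18a3, the vesicular transporter gene, read 145, 141 and 110 on A, and the choline transporter gene Slc44a1 read 909, 802 and 600. Fewer cells of a type and less RNA per cell cannot be told apart in these bulk samples. Ache is also a gene of muscle endplates, and the part of the muscle markers in its readings was not tested.

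Genes for receptor partners and regulators, 12 listed, were kept for 8 on A and 6 on B. On each array type 5 were higher than wild type in both pools and 0 lower. Over all kept probe sets 47.9% were higher and 34.8% lower on A, and 38.9% and 36.6% on B. Grk6, a kinase that desensitises active receptors, read 1480, 667 and 381 on B (1.19, adjusted p = 0.147), but 95.6, 71 and 75.5 on A. The arrestin gene Arrb2 read 205, 151 and 102 on A (0.79, adjusted p = 0.248). Lypd1, a nicotinic receptor modulator gene, read 114, 133 and 88.9 on A, and the sorting protein gene Snx27 read 705, 525 and 390 on B. None passed. The medians of this list were 0.361 on A and 0.387 on B, beside 0.114 and 6.3e-05 over all kept probe sets.

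G protein and effector genes, 19 listed, went both ways. On A 15 were kept, 8 higher and 3 lower than wild type in both pools (47.9% and 34.8% of all kept probe sets). On B 9 were kept, 3 higher and 6 lower (38.9% and 36.6% of all), and none passed. Gnai1, a Gi alpha subunit gene, read 570, 827 and 1480 on A (-1.20, adjusted p = 0.161), while Gnai2 of the same family read 693, 766 and 388 (0.87, adjusted p = 0.174). Gnal, a Gs-like alpha subunit gene, read 345, 451 and 758 on B (-1.07, adjusted p = 0.21). The adenylyl cyclase gene Adcy9 read 233, 243 and 116 on B (1.06, adjusted p = 0.258) but 267, 196 and 226 on A. Of the neuromuscular postsynaptic genes, a list that includes the 5 muscle subunit genes, 2 of 9 on A and 1 of 2 on B were kept: Agrn, which clusters muscle receptors, at 240, 243 and 212 on A, Lrp4, its receptor gene, at 71.7, 60 and 76.9, and Dok7, an adaptor gene, at 964, 656 and 515 on B.

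**Figure D4:**
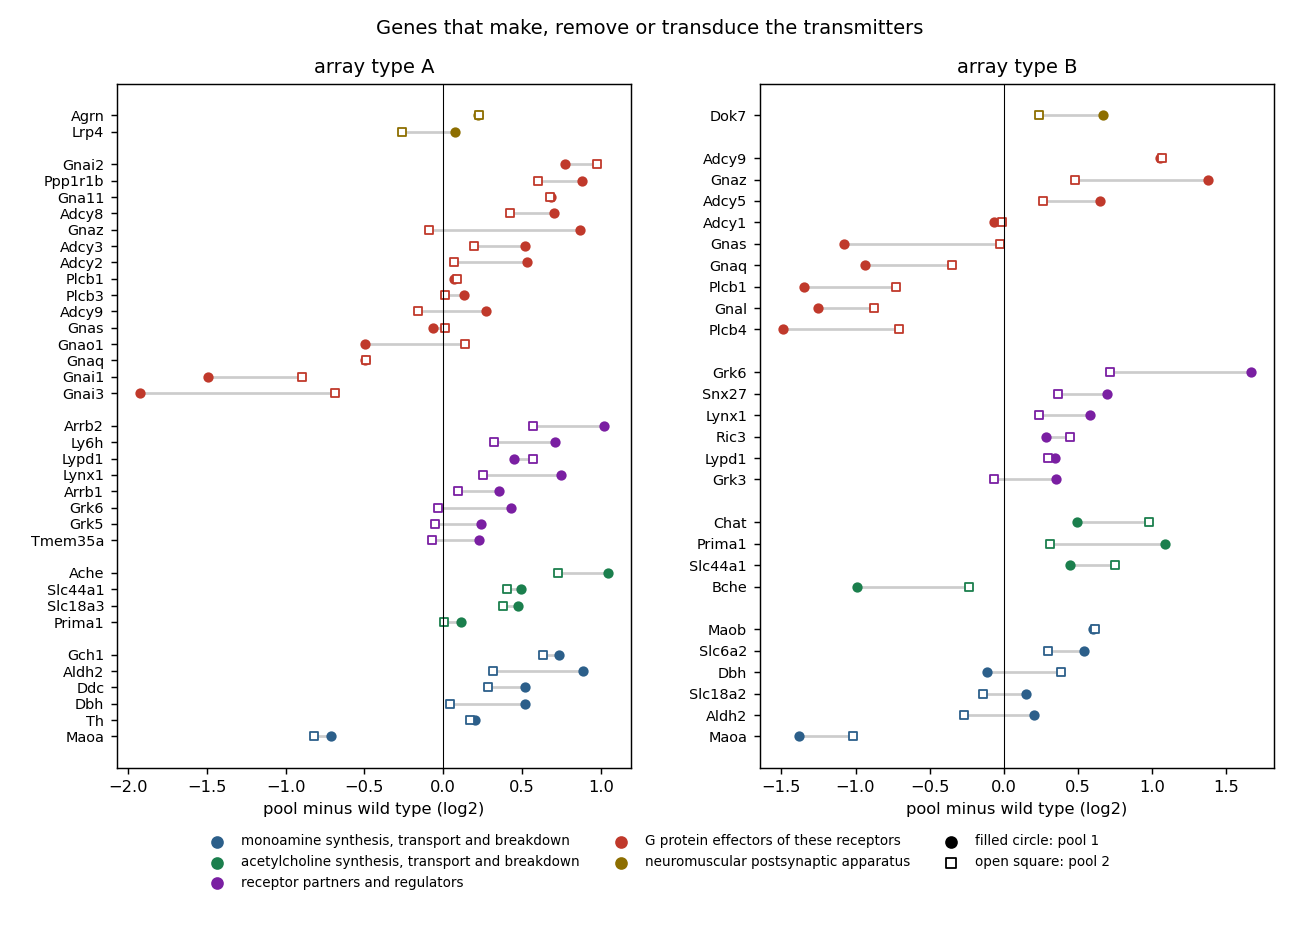
Log2 difference from wild type of pool 1 (filled circles) and pool 2 (open squares) for the kept genes of the transmitter lists, by array type and list. Maoa lies below 0 in both pools on both array types, and the cholinergic genes of A lie above 0.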

How the data were processed

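Per the labels, total RNA of each pool was measured on 2 array types. The deposited values are linear intensities, 1 for every probe set and array. Trimming 2% off both tails leaves a mean of 150.053 to 150.063 on A and 150.019 to 150.028 on B, so the authors had brought all arrays to one scale. How probes were summarised is not stated in the labels. Of 22690 probe sets on A and 22575 on B, 64 controls on each were dropped. The platform annotation gives 1 symbol for 20380 and 14661 of the rest, several for 691 and 245, and none for 1555 and 7605. Updating symbols by gene identifier with RefSeq's GRCm38.p6 table changed no member's name.

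Each array type was fitted alone with limma 3.58.1 in R 4.3.3 (lmFit, eBayes with an intensity trend) on quantile-normalized log2(intensity + 16), with 1 residual degree of freedom and a prior of 6.54 degrees on A and 52.3 on B. SEs, intervals and adjusted p values rest mostly on that prior, and assume that the lone wild-type pool varies like the others. The only spread between pools that enters the p-values is that of the 2 Egr3-deficient pools, since wild type has 1 pool. The number of arrays limits the precision. Lists used 1 probe set a gene, that of highest mean intensity.

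Members and lists were chosen with earlier results of these data known. Named members were those over an intensity of 100 in wild type, past the threshold, at least 2-fold apart in both pools with a reading over 100, or with the 2 highest wild-type readings of a family; of each list, up to 4 kept genes with the largest smaller-of-2 ratio. Other genes serve as context. Alternatives were no quantile normalization, median centring, scaling on shared probe sets, pseudocounts of 1 and 64, other filters, other variance models, joint adjustment, 1 probe set a gene and leaving out each Egr3-deficient pool.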

Additional observations from a re-analysis of the deposited data

How the results depend on the processing

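No paired analysis was possible because the wild-type group has 1 pool, and the labels name no pairs. The wild-type pool (RNA 499) and pool 2 (RNA 500) have adjacent numbers and share the acclimatization remark that pool 1 (RNA 450) lacks. Receptor calls stayed at 0 on A under every setting with a test, and at 0 on B except with the filter at the 60th percentile, where Chrna4 made it 1; the lowest adjusted p of a receptor ran from 0.212 to 0.516 on A and from 0.0404 to 0.474 on B. Receptors at an unadjusted p under 0.05 numbered 0 to 1 on A and 1 to 3 on B. The median difference of the kept receptors on A was 0.037 without quantile normalization and on shared scaling, and -0.091 over the 2 probe sets left by the filter at the 60th percentile; on B it was -0.496 on shared scaling, where all kept probe sets had -0.664. On shared scaling 0 receptors on B were 2-fold higher and 2 lower; at a pseudocount of 64, 0 were higher. Without pool 1 and without pool 2, receptors 2-fold lower on B were 0 and 1. A limit of 50 gave 6 probe sets on A and 14 on B, and a limit of 200 gave 0 and 5. Of 259 repeats of single receptor values 246 kept their direction and 13 turned. Without pool 1 these were the first Chrna4 probe set on A (-0.3), and Chrm1 (0.101) and Htr5a (-0.05) on B; without pool 2 they were Htr3a on A (-0.042) and Chrna3 on B (0.294). The other 8 were the first Chrna4 probe set on A (-0.076 without quantile normalization and on shared scaling), Chrm1 under median centring (0.138), Htr5a without quantile normalization (-0.028), and, on shared scaling, Chrnb2 (-0.241), the second Adra2c probe set (-0.389), Htr5a (-0.604) and Chrnb4 (-0.152) on B. The cause was not tested. Dim readings limit what can be said of the 21 genes kept on neither array type.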
